A study of Mus musculus with 6 samples.

Results

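The nuclear receptor family outside the naive pluripotency core was examined in mouse embryonic stem cells (ESCs) and in the epiblast-like cells (EpiLCs) derived from them. The set comprised 34 genes of the 24736 in the deposited table, taken by symbol. It left out the retinoid receptors and the receptors of the naive network, *Esrrb*, *Nr5a2* and *Nr0b1*. RNA-seq was performed on 3 biological replicates of each cell type. All libraries came from the wild-type HM1 TetON line, an XY line. ESCs (0 h) were kept on feeder fibroblasts with 10% serum and LIF at 1000 U/ml, and no CHIR99021 or PD0325901 is named for them. EpiLCs were differentiated for 48 h according to the labels, in medium without serum that held 10 ng/ml bFGF and 5 µM LGK974, an inhibitor of WNT secretion; the culture methods describe a longer course. For differentiation, ESCs were first freed of feeders by letting these attach to plastic, and the methods read here do not say whether the ESCs taken at 0 h were treated in this way. The groups thus differed in cell state, medium and feeder contact together, and these cannot be told apart.

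Nuclear receptors are transcription factors that bind DNA through zinc fingers and, in most members, are switched by a lipid-soluble ligand such as a steroid, thyroid hormone, fatty acid or oxysterol. Many bind as heterodimers with a retinoid X receptor. Without ligand several of them recruit corepressors of the NCoR and SMRT family, and with ligand they recruit coactivators. Others, the orphan receptors, have no known natural ligand and are controlled mainly by how much of them is made. The members are described in the order of their subfamilies.

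Totals of expected counts lay between 16967741 and 35096210 per library, so that 3 counts corresponded to between 0.0855 and 0.177 CPM (counts scaled to library size), a limit that covers counting error only. All 6 EpiLC marker genes were higher in EpiLCs, against 22.6% of all genes tested, and 5 of 6 ESC marker genes were lower, against 22.8%. The ESC libraries differed in fibroblast transcripts. The summed level of 14 fibroblast markers was 1432, 3382 and 750.7 TPM (a level scaled for transcript length and library) in ESC replicates 1, 2 and 3, against 222.5 to 283.4 TPM in EpiLCs. All 14 markers were highest in ESC replicate 2 and lowest among ESCs in replicate 3, and *Lum* was the only 1 listed at 0 in any library. Of the 13 fibroblast markers with enough counts, 7 were lower in EpiLCs (53.8%, against 22.8% of all genes tested). Of these 7, *S100a4* passed the filter on low counts through its ESC libraries alone. In these bulk libraries, fewer cells of a type and less RNA per cell cannot be told apart.

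Of the 34 receptors, 17 had a mean of at least 1 TPM in ESCs and 16 in EpiLCs, 14 of them in both. The mean reached 10 TPM for 9 receptors in each cell type, and 15 stayed under 1 TPM in both. Enough counts for a test were present for 23 receptors. Between EpiLCs and ESCs, 5 of these 23 were higher (21.7%) and 8 were lower (34.8%) past the threshold (edgeR, adjusted p of 0.05, with the adjustment made over the whole table). Among all 14468 genes tested, 22.6% were higher and 22.8% lower, 45.4% in either direction, against 13 of 23 receptors (56.5%). The median log2 fold change was -0.15 for the 23 receptors and -0.0017 for all genes tested. For 10 of the 13, the log2 fold change exceeded 1 in size, as it did for 2927 of the 6571 genes past the threshold in the whole table. In each of the 13 receptors the 3 EpiLC libraries did not overlap the 3 ESC libraries. Low counts limit these shares and sizes: *Nr4a3*, *Hnf4a* and *Esr2* passed the filter only through the group in which they were higher. *Nr1h3* and *Nr2f1*, not past the threshold, also passed the filter only in this way. Of the 17 receptors that passed it in each group alone, 4 were higher and 6 lower. Non-overlap held for 17 of the 23 receptors and for 59.5% of all genes tested. The plot of levels by library shows the 23 receptors. Without ESC replicate 2, which had the most fibroblast transcripts, 6 receptors were higher and 8 lower. The number of higher receptors was 3 without ESC replicate 1, 3 without EpiLC replicate 1 and 2 without EpiLC replicate 2. Over all genes, the number higher in these fits was 2640 of 14702, 2144 of 14768 and 2333 of 14748 tested, against 3267 of 14468 with all libraries. The number of lower receptors stayed between 7 and 9 when any 1 library was left out, and that of all genes between 2100 and 3609.

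**Figure D1:**
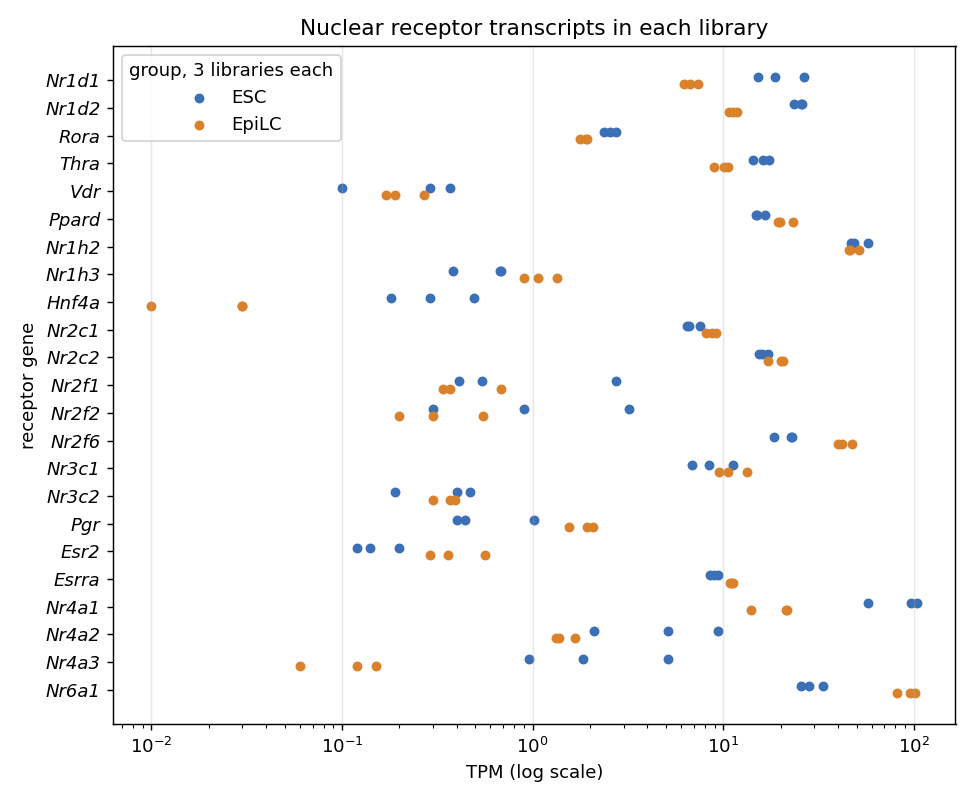
TPM (log scale) of the 23 receptors with enough counts in each of 3 ESC and 3 EpiLC libraries, 1 point per library. The NR4A receptors, Nr1d1, Nr1d2 and Hnf4a had ESC points above all EpiLC points, whereas Nr6a1 and Nr2f6 had EpiLC points above all ESC points.

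The summed level of the 34 receptors was 332.3, 356.2 and 275.4 TPM in the ESC libraries (321.3 ± 41.5, SD, n = 3) and 308.7, 317 and 305.3 TPM in the EpiLC libraries (310.3 ± 6.02). These values overlap. The log2 ratio of the means, -0.050, took the opposite sign as 0.03 without ESC replicate 2. Summed CPM, which is not scaled for length, was 534.6, 557.2 and 460.7 in ESCs and 605, 592.9 and 606.3 in EpiLCs. There all EpiLC libraries were above all ESC libraries, with a log2 ratio of 0.22. In ESCs *Nr4a1* alone made up 26.4% ± 5.27 of the summed level and *Nr6a1* 9.19% ± 1.72. In EpiLCs *Nr6a1* made up 29.96% ± 3.88 and *Nr4a1* 6.08% ± 1.3. *Nr1h2* kept a similar place, with 16.0% ± 1.23 and 15.4% ± 0.73. For comparison, the 3 naive core receptors summed to 346.5 ± 72.5 TPM in ESCs and 7.33 ± 0.33 TPM in EpiLCs, and the 6 retinoid receptors to 144 ± 12.5 and 173.9 ± 11.9 TPM.

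**Figure D2:**
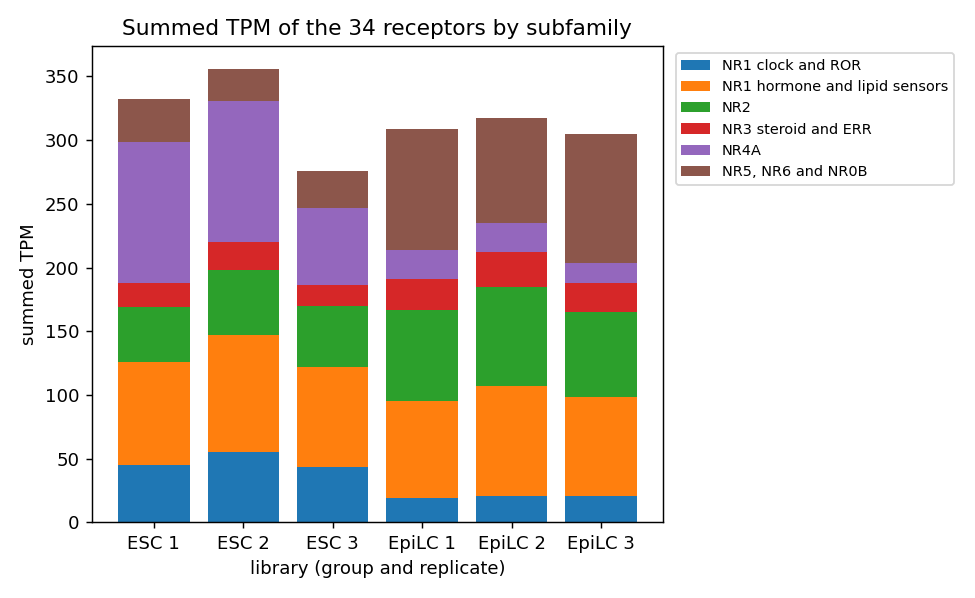
Summed TPM of the 34 receptors in each library (stacked bars, 1 per library), divided by subfamily. The NR4A segment was 60.43 to 111 TPM in ESCs and 15.49 to 23 TPM in EpiLCs, and the segment of NR5, NR6 and NR0B was 25.77 to 33.58 and 82.01 to 101.9 TPM.

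The 3 NR4A receptors were all lower in EpiLCs. They are orphan receptors whose genes are switched on within minutes by growth factors, serum and other stimuli, and they bind DNA without a classical ligand. *Nr4a1* (NUR77; chromosome 15, 101253902 to 101274795 on mm10) was found at 104.06, 96.16 and 57.36 TPM in the ESC libraries and at 21.51, 21.2 and 14.01 TPM in the EpiLC libraries. It was the most abundant of the 34 receptors in ESCs, and each EpiLC library lay far below each ESC library. The log2 fold change was -2.23 (standard error 0.26, adjusted p = 0.000807), a level 4.70-fold higher in ESCs.

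*Nr4a2* (NURR1; chromosome 2, 57106830 to 57124003) had 5.13, 9.39 and 2.11 TPM in ESCs and 1.37, 1.66 and 1.33 TPM in EpiLCs (-1.97, standard error 0.50, adjusted p = 0.0171). Its ESC libraries spread widely, and the lowest stood only just above the EpiLC range. Without EpiLC replicate 1, 2 or 3 the adjusted p was 0.0643, 0.0525 or 0.0619. *Nr4a3* (NOR1; chromosome 4, 48045078 to 48086447) had 1.84, 5.1 and 0.96 TPM in ESCs and 0.12, 0.06 and 0.15 TPM in EpiLCs. It passed the filter on low counts through its ESC libraries alone. The log2 fold change was -4.63 (standard error 0.74, adjusted p = 0.00291), and -3.73 without ESC replicate 2 (adjusted p = 0.00124).

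Other immediate early genes, the transcription factors and regulators induced by the same kinds of stimuli, moved in the same direction. Of 9 such genes, 9 were lower in EpiLCs, against 22.8% of all genes tested, with a median log2 fold change of -2.66. Their summed level was 1673, 1117 and 1222 TPM in ESC replicates 1, 2 and 3 and 222.2, 238 and 158.1 TPM in EpiLCs. *Nr4a2* and *Nr4a3* also followed the fibroblast markers among the ESC libraries, highest in replicate 2 and lowest in replicate 3, whereas *Nr4a1* was highest in replicate 1. The part of immediate early induction and of fibroblast transcripts in the NR4A values was not tested.

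The upstream sequences of *Nr4a1* and *Nr4a2* are shown because the genes share a short motif there. The pentamer TGACG, the core of the cyclic AMP response element, was searched on both strands in the 250 bases before the RefSeq starts (GRCm38.p6), with overlapping matches counted separately. It was chosen after the sequences were seen. At least 3 matches were present in 0.688% of 32851 promoters and in 4 of 43 promoters of the receptors, those of *Nr2e1*, *Nr4a1*, *Nr4a2* and *Nr4a3*. The 3 NR4A promoters held 4 each. Capitals mark TGACG or its reverse complement. The *Nr4a1* stretch, chr15:101266596-101266845 on the plus strand, lies within the span of a longer *Nr4a1* transcript, and the *Nr4a2* stretch is chr2:57124004-57124253 on the minus strand.
Nr4a1: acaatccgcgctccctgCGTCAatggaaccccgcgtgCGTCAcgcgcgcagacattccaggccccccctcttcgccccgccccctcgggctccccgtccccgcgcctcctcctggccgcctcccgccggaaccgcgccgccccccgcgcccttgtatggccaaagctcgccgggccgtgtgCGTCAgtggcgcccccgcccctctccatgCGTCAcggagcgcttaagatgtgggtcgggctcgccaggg
Nr4a2: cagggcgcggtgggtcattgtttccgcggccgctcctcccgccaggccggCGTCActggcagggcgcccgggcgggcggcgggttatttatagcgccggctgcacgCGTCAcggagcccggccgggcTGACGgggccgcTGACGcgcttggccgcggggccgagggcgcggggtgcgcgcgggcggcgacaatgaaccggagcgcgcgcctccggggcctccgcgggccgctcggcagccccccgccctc
The *Nr4a3* window overlaps a transcript that starts further upstream and is not printed. These matches are a description of the sequence. At least 1 match was found in 17.8% of all promoters and in 10 of the 43.

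The REV-ERB receptors of the circadian clock were lower in EpiLCs, and the ROR receptor gene *Rora* was lower by counts but not by TPM tests. REV-ERBα and REV-ERBβ, encoded by *Nr1d1* and *Nr1d2*, are heme-binding repressors of the clock activator gene *Arntl*, and RORα, encoded by *Rora*, activates through the same DNA elements. *Nr1d1* (chromosome 11, 98767932 to 98775377) had 18.61, 26.5 and 15.27 TPM in ESCs and 6.25, 7.34 and 6.71 TPM in EpiLCs, 3.07-fold lower in EpiLCs (log2 -1.62, standard error 0.21, adjusted p = 0.00117). *Nr1d2* (chromosome 14, 18204056 to 18239106) had 23.49, 25.94 and 25.64 TPM in ESCs and 10.68, 11.3 and 11.83 TPM in EpiLCs (-1.20, standard error 0.084, adjusted p = 0.000144). Its replicates were close together, and the groups stood well apart. The *Nr1d1* gene overlaps the convergent *Thra* gene by 1075 bases at its 3′ end (98767932 to 98769006). The authors' counting used strand information.

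The hexamer AGGTCA, to which many nuclear receptors bind, was present on either strand in 6 of the 43 promoter windows of 300 bases that were found for 31 of the receptors (14%) and in 16.3% of all promoters. *Nr1d2* is the example with the clock receptors, 77 bases before its start. The stretch is chr14:18239148-18239213 on the minus strand (GRCm38.p6, RefSeq), with the hexamer in capitals.
Nr1d2: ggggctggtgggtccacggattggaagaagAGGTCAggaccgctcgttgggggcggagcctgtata
The E-box CACGTG, the site of clock activators, was present in 3 of the 43 windows (6.98%) and in 7.15% of all promoters, and the octamer TGACGTCA in 2 (4.65%) and 1.79%.

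*Rora* (chromosome 9, 68653404 to 69388246) gave different answers by counts and by TPM. Its expected counts were 249, 188 and 275 in ESCs and 131, 149 and 115 in the deeper EpiLC libraries, which edgeR estimated as -1.47 on the log2 scale (standard error 0.15, adjusted p = 0.000504). In TPM, it stood at 2.73, 2.55 and 2.37 in ESCs and at 1.92, 1.91 and 1.78 in EpiLCs, a log2 ratio of -0.45. On the log2(TPM + 1) and log2(TPM + 0.1) scales limma gave -0.31 (adjusted p = 0.0596) and -0.43 (adjusted p = 0.0904). The groups did not overlap by either measure, but the size of the difference depended on the measure.

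Dividing each count by its TPM gives the transcript length that the quantification assumed, relative to the median gene of the library. For *Rora* this was 3.12, 3.29 and 3.05 in ESCs and 1.47, 1.74 and 1.58 in EpiLCs. For the other 13 receptors with at least 1 TPM in every library the group means of this ratio were nearly equal, such as 1.652 and 1.650 for *Nr1d2* and 2.190 and 2.184 for *Nr6a1*. *Rora* was the only 1 of 11517 genes at this level (0.00868%) in which the log2 ratios from CPM and TPM differed by more than 0.5. The protein-coding *Rora* transcripts of GENCODE vM21, not the annotation used for counting, measure 10878 and 2591 bases. Which *Rora* transcripts were present was not measured by these gene-level values. This comparison was chosen after the values were seen. *Rorb*, a neural and retinal paralogue, had at most 0.07 TPM in any library.

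**Figure D3:**
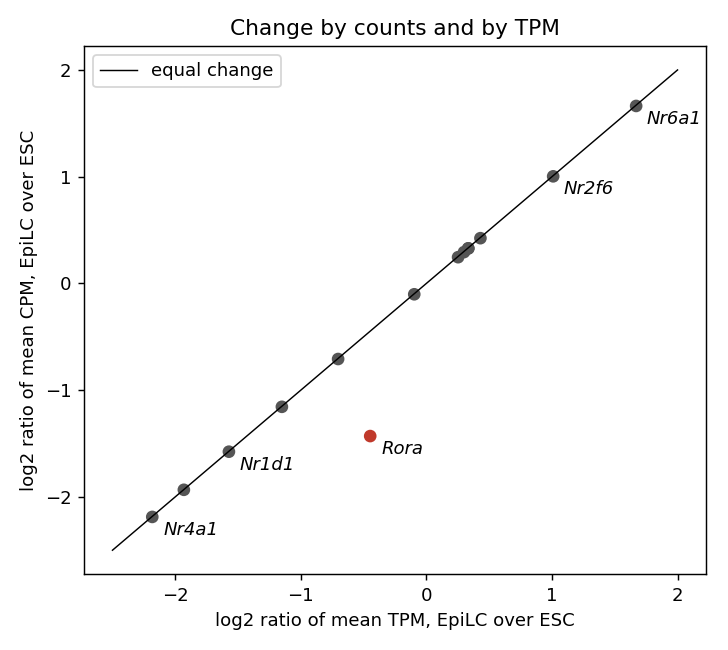
Log2 ratio of EpiLC to ESC means from TPM (x axis) and from CPM (y axis) for the 14 receptors with at least 1 TPM in every library, 1 point per receptor, with the line of equal change. Rora (-0.45 by TPM and -1.43 by CPM) lay off the line, and the other 13 lay on it.

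Beyond the receptors, 15 of 16 clock genes had enough counts, and 4 were higher and 3 lower, with a median log2 fold change of -0.017. These shares (26.7% and 20%) are near the 22.6% and 22.8% of all genes tested, and 1 of the 4 passed the filter on low counts through its EpiLC libraries alone. *Arntl*, the target of REV-ERB repression, had 7.77, 13.41 and 14.29 TPM in ESCs and 11.6, 12.14 and 9.83 TPM in EpiLCs, so the groups overlapped (-0.13, adjusted p = 0.685). *Bhlhe40*, a repressor of the clock, was lower (45.4 ± 11.3 TPM in ESCs and 10.98 ± 4.32 in EpiLCs, log2 -2.10, adjusted p = 0.00278), as was *Hlf*, a PAR bZIP factor (-1.28, adjusted p = 0.00428). Without EpiLC replicate 1 or 2, the number of clock genes that passed the threshold was 4 in place of 7. Over all genes it also fell, to 2144 or 2333 higher and 2100 or 2411 lower, in place of 3267 and 3304.

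Among the hormone and lipid sensors of subfamily NR1, 1 receptor was lower and 1 higher of 5 with enough counts (20% each, against 22.8% and 22.6% of all genes tested). *Thra* (chromosome 11, 98740776 to 98769006), which encodes thyroid hormone receptor α, had 16.2, 17.47 and 14.39 TPM in ESCs and 8.9, 10.09 and 10.53 TPM in EpiLCs. The difference was smaller than those of the NR4A and REV-ERB genes but clear of the replicate spread (-0.75, standard error 0.12, adjusted p = 0.00339). *Thrb*, its paralogue, had at most 0.15 TPM.

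*Ppard* (chromosome 17, 28232754 to 28301469), the fatty acid receptor PPARδ, had 14.85, 15.07 and 16.51 TPM in ESCs and 19.86, 23.25 and 19.45 TPM in EpiLCs (0.38, standard error 0.10, adjusted p = 0.0206). This 1.298-fold rise did not pass the threshold without ESC replicate 1 (adjusted p = 0.0732), EpiLC replicate 1 (0.0562) or EpiLC replicate 2 (0.0772). *Ppara* and *Pparg*, the PPARs of liver and of fat, had at most 0.1 and 0.3 TPM.

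*Nr1h2*, the widely expressed oxysterol receptor LXRβ, was the most abundant sensor and the second most abundant of the 34 receptors in each group. It had 48.59, 57.59 and 46.99 TPM in ESCs and 45.65, 51.33 and 46.25 TPM in EpiLCs (-0.15, 95% interval -0.38 to 0.08, adjusted p = 0.25). The groups overlapped. *Nr1h3* (LXRα) had 0.68, 0.67 and 0.38 TPM in ESCs and 1.07, 1.34 and 0.9 in EpiLCs (0.93, 95% interval 0.15 to 1.71, adjusted p = 0.0553). All 3 EpiLC values were the higher ones. However, the gene passed the filter on low counts through its EpiLC libraries alone, and the call depended on the fit. The adjusted p was 0.0493 with upper-quartile normalization and 0.0384 and 0.0485 by limma on TPM, but 0.161 by DESeq2, 0.0787 with no filter and 0.0647 to 0.18 when 1 library was left out. *Vdr*, the vitamin D receptor, had 0.1 to 0.37 TPM in all libraries (-0.23, interval -1.40 to 0.94, adjusted p = 0.728). *Nr1h4*, the bile acid receptor FXR, had at most 0.28 TPM.

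In subfamily NR2, the orphan receptor gene *Nr2f6* (chromosome 8, 71374118 to 71381967), a relative of the COUP-TF genes, was higher in EpiLCs. It had 18.43, 23.02 and 22.78 TPM in ESCs and 42.02, 47.29 and 40 TPM in EpiLCs, a 1.94-fold difference (log2 0.96, standard error 0.12, adjusted p = 0.000984). Its COUP-TF paralogues, *Nr2f1* and *Nr2f2*, are known from mesenchymal and neural tissue. *Nr2f1* had 0.54, 2.73 and 0.41 TPM in ESCs and 0.37, 0.68 and 0.34 in EpiLCs (-1.49, adjusted p = 0.167). *Nr2f2* had 0.9, 3.22 and 0.3 TPM in ESCs and 0.2, 0.55 and 0.3 in EpiLCs (-2.09, adjusted p = 0.082).

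Both COUP-TF genes were several-fold higher in ESC replicate 2 than in any other library. Without it their log2 fold changes were -0.11 (adjusted p = 0.859) and -0.81 (adjusted p = 0.294). DESeq2 called *Nr2f2* with all libraries (-2.13, adjusted p = 0.0249), as did edgeR without ESC replicate 3 (-2.58, adjusted p = 0.0169). Of the 23 receptors tested, 9 had the order of the fibroblast markers among the ESC libraries (replicate 2, then 1, then 3), as did 26% of all genes tested. The part of fibroblast transcripts in these values was not tested.

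**Figure D4:**
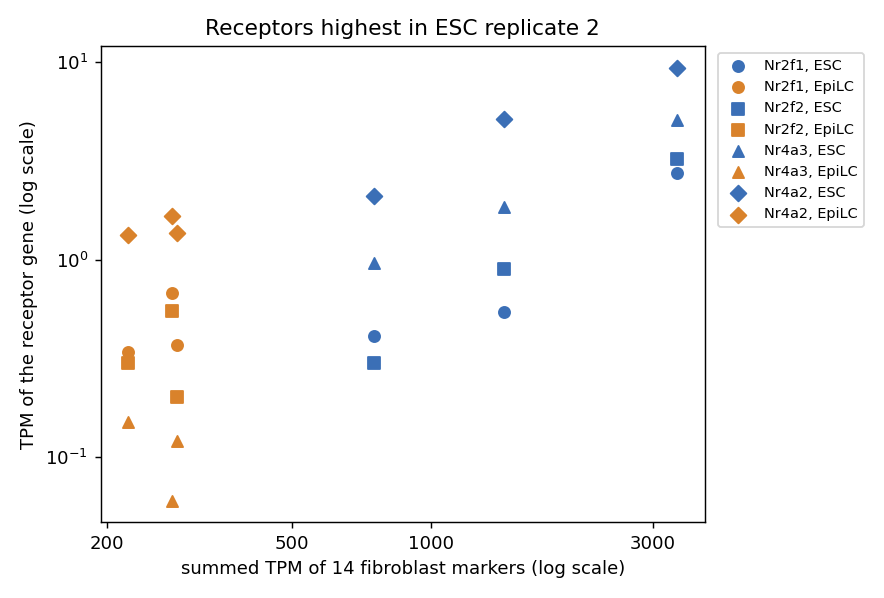
TPM of Nr2f1, Nr2f2, Nr4a2 and Nr4a3 (y axis, log scale) against the summed TPM of 14 fibroblast markers (x axis, log scale), 1 point per gene and library. The ESC library at 3382 TPM of fibroblast markers (replicate 2) was the highest for each of the 4 receptors, from 2.73 TPM for Nr2f1 to 9.39 TPM for Nr4a2.

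*Nr2c1* and *Nr2c2*, the testicular orphan receptors TR2 and TR4, were moderately expressed. *Nr2c1* had 6.44 to 7.54 TPM in ESCs and 8.12 to 9.15 TPM in EpiLCs (0.28, 95% interval 0.0052 to 0.56, adjusted p = 0.0878). *Nr2c2* had 15.39 to 17.09 and 17.11 to 20.57 TPM (0.20, interval -0.011 to 0.41, adjusted p = 0.107). In both genes the groups did not overlap, although *Nr2c2* came within 0.02 TPM of doing so. Without EpiLC replicate 3, *Nr2c2* reached 0.27 (adjusted p = 0.05).

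*Hnf4a* (chromosome 2, 163506811 to 163572907), a regulator of visceral endoderm and liver, was lower in EpiLCs but near the limit of detection. It had 8, 10 and 29 counts in the ESC libraries, or 0.18, 0.29 and 0.49 TPM, and 1, 2 and 2 counts in the EpiLC libraries, or 0.01, 0.03 and 0.03 TPM. The edgeR test gave an adjusted p = 0.00314, but the gene passed the filter on low counts through its ESC libraries alone, so a difference was built into its selection. Summed over libraries, 47 and 5 counts gave a ratio of CPM of 13.9 (exact 95% interval 5.54 to 44.7, counting error only). The 6 primitive endoderm markers summed to 56.09, 42.16 and 32.42 TPM in ESC replicates 1, 2 and 3 and to 10.13, 10.3 and 10.53 TPM in EpiLCs, and 4 of 6 were lower, against 22.8% of all genes tested. Among ESCs *Hnf4a* had the opposite order, highest in replicate 3. The part of primitive endoderm transcripts in the result was not tested. *Nr2e1* and *Nr2e3*, receptors of neural progenitors and photoreceptors, had at most 0.1 and 0.04 TPM.

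The steroid receptors were scarce in both cell types except for the glucocorticoid receptor. *Nr3c1*, which encodes it, had 8.44, 11.2 and 6.89 TPM in ESCs and 10.62, 13.33 and 9.48 in EpiLCs (0.28, 95% interval -0.18 to 0.74, adjusted p = 0.265). Without ESC replicate 2 the value was 0.49 (adjusted p = 0.0408). *Nr3c2*, the mineralocorticoid receptor, averaged 0.353 TPM in each group (-0.07, interval -0.98 to 0.84, adjusted p = 0.893).

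*Pgr* (chromosome 9, 8898900 to 8968611), the progesterone receptor, had 1.02, 0.4 and 0.44 TPM in ESCs and 1.92, 2.06 and 1.55 TPM in EpiLCs. All EpiLC libraries were above all ESC libraries (1.52, standard error 0.37, adjusted p = 0.0155). The adjusted p was 0.054 without EpiLC replicate 1 and 0.053 without EpiLC replicate 2. *Esr2* (chromosome 12, 76120419 to 76177259), estrogen receptor β, rested on 4 to 6 counts in ESCs and 16 to 27 in EpiLCs. Its levels were 0.12, 0.2 and 0.14 TPM and 0.29, 0.36 and 0.56 TPM (1.43, standard error 0.42, adjusted p = 0.0287). It passed the filter on low counts through its EpiLC libraries alone, where it is higher. DESeq2 gave an adjusted p = 0.092. Without ESC replicate 1 or 3 or EpiLC replicate 2 or 3, it was 0.0919, 0.0741, 0.0644 or 0.0878. *Esr1*, estrogen receptor α, had at most 0.04 TPM.

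Of the estrogen-related receptors outside the naive core, *Esrra*, a regulator of mitochondrial genes, had 8.48, 9.39 and 8.97 TPM in ESCs and 11.03, 11.2 and 10.8 TPM in EpiLCs. The groups did not overlap, but the difference was small (0.25, 95% interval -0.026 to 0.52, adjusted p = 0.12). *Esrrg* had at most 0.15 TPM. Their paralogue *Esrrb*, a naive pluripotency factor, was 229.7 ± 57.6 TPM in ESCs and 2.75 ± 0.24 TPM in EpiLCs (-6.44, adjusted p = 1.83e-05). *Nr5a2* (-4.30) and *Nr0b1* (-5.09) were also lower.

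*Nr6a1* (chromosome 2, 38723369 to 38926461) was higher in EpiLCs. It encodes the germ cell nuclear factor GCNF, an orphan receptor that represses *Pou5f1* as pluripotent cells differentiate. The level was 33.5, 25.67 and 28.31 TPM in ESCs and 94.86, 81.65 and 101.92 TPM in EpiLCs. EpiLC libraries were far above ESC libraries, and *Nr6a1* was the most abundant of the 34 receptors in EpiLCs. The difference was 3.07-fold (log2 1.62, standard error 0.13, adjusted p = 0.000214). The rises of *Pgr* and *Esr2* were of like size, and 1 of these exceeded that of *Nr6a1* without ESC replicate 1 or 2 or EpiLC replicate 1 or 3. *Pou5f1* itself had 1236.55, 1350.99 and 1418.12 TPM in ESCs and 1424.59, 1574.35 and 1355.45 TPM in EpiLCs, so the groups overlapped (0.07, adjusted p = 0.496). It was the ESC marker that was not lower. Of the other known target genes, the oocyte factor *Gdf9* had 0.76, 0.71 and 0.42 TPM in ESCs and 0.03, 0.04 and 0.24 TPM in EpiLCs. This rested on 14, 10 and 10 counts in ESCs and 1, 1 and 6 in EpiLCs, and the gene passed the filter on low counts through its ESC libraries alone (edgeR, adjusted p = 0.0193). *Bmp15* had 0.05 to 0.12 TPM in ESCs, was listed at 0 in all 3 EpiLC libraries and had too few counts for a test. *Nr5a1* and *Nr0b2*, receptors of steroid-producing tissue and of liver, had at most 0.02 and 0.36 TPM.

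**Figure D5:**
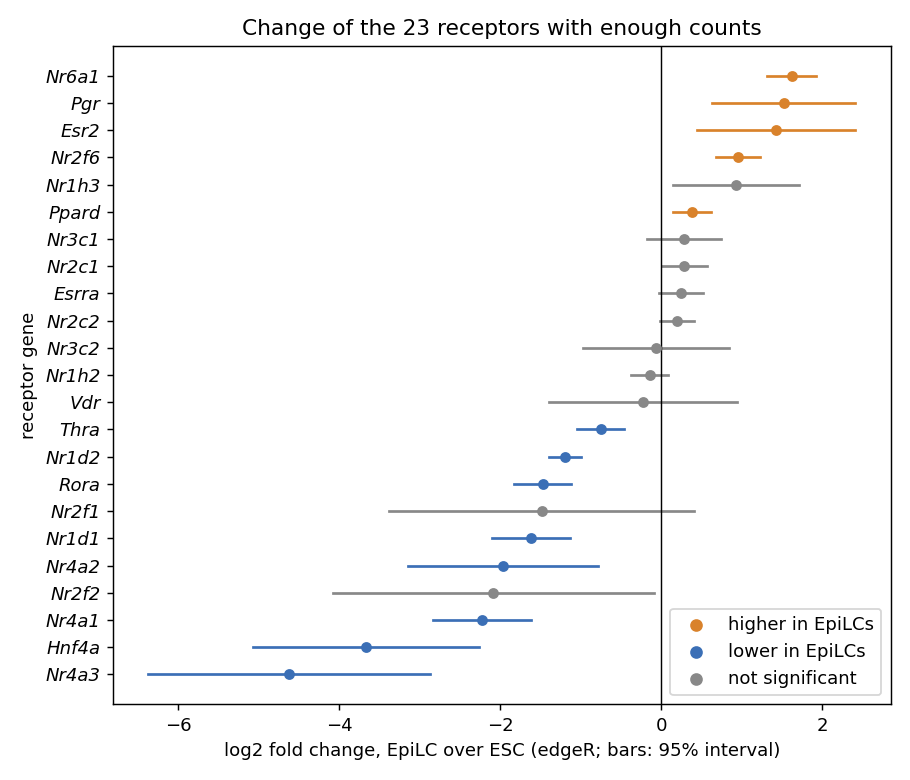
Log2 fold change (EpiLC over ESC, edgeR) of the 23 receptors with enough counts, ordered by size, with 95% intervals as bars. The 5 higher receptors ran from 0.38 (Ppard) to 1.62 (Nr6a1) and the 8 lower ones from -0.75 (Thra) to -4.63 (Nr4a3), and the widest intervals were those of Nr2f1, Nr2f2 and Nr4a3.

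In all, 11 receptors had too few counts for a test. These were *Nr0b2*, *Nr1h4*, *Nr2e1*, *Nr2e3*, *Nr5a1*, *Esr1*, *Esrrg*, *Ppara*, *Pparg*, *Rorb* and *Thrb*. None exceeded 13 counts or 0.36 TPM in a library, or 42 counts over all 6 libraries. Fitted without a filter, 0 of the 11 passed the threshold by edgeR, and 1 had an unadjusted p under 0.05. This was *Esrrg*, with 2, 1 and 3 counts in ESCs and 7, 13 and 9 in EpiLCs, where the groups did not overlap (1.65, standard error 0.57, adjusted p = 0.0557). It was named after its values were seen. For the other 10 no difference was detectable at this depth.

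The cofactors and partners through which the receptors act were measured as well. Of the retinoid receptors, *Rara* was lower (37.2 ± 4.14 TPM in ESCs and 13.5 ± 0.79 in EpiLCs, log2 -1.52, adjusted p = 0.000154). *Rarg* (56.1 ± 10.3 and 106.4 ± 9.01 TPM, 0.87, adjusted p = 0.00268) and *Rxrg* (1.28 ± 0.49 and 7.94 ± 3.57 TPM, 2.63, adjusted p = 0.00343) were higher. The general heterodimer partners *Rxra* (10.3 ± 1.89 and 10.1 ± 0.92 TPM, adjusted p = 0.635) and *Rxrb* (39.0 ± 0.76 and 36 ± 1.68 TPM, adjusted p = 0.0819) did not pass the threshold. *Rarb* had too few counts. Of 21 coregulators 20 had enough counts, and 3 were higher (15%) and 10 lower (50%), against 22.6% and 22.8% of all genes tested, with a median log2 fold change of -0.32. The coactivator *Ncoa3* was the only coregulator beyond a log2 fold change of 1 in size, with 50.52, 60.49 and 58.9 TPM in ESCs and 26.99, 27.53 and 26.05 TPM in EpiLCs (-1.13, adjusted p = 0.000166). Without EpiLC replicate 1, 2 or 3, the number of coregulators past the threshold was 6, 8 or 6 in place of 13. Over all genes it also fell, to 2144, 2333 or 2628 higher and 2100, 2411 or 2539 lower, in place of 3267 and 3304.

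Several enzymes and carriers that make, remove or deliver ligands were higher in EpiLCs. Of 21 listed genes 14 had enough counts, of which 6 were higher (42.9%, against 22.6% of all genes tested) and 0 lower by edgeR, with a median log2 fold change of 0.67. At an unadjusted p under 0.05, 2 were lower, and DESeq2 called 1 lower after adjustment. Without a filter on low counts edgeR called 6 higher and 2 lower. The 2 were *Dio2*, the activating thyroid hormone deiodinase, with 11, 8 and 3 counts in ESCs and 0 in each EpiLC library (adjusted p = 0.014), and *Ch25h*, cholesterol 25-hydroxylase, with 3, 12 and 3 counts in ESCs and 1, 1 and 0 in EpiLCs (adjusted p = 0.037). *Cyp24a1*, which degrades vitamin D and is a known target of its receptor, had 0.03, 0.11 and 0.07 TPM in ESCs and 1.58, 1.66 and 2.28 TPM in EpiLCs. It had 1, 3 and 3 counts in ESCs and 86, 87 and 109 in EpiLCs, and passed the filter on low counts through its EpiLC libraries alone (edgeR, adjusted p = 0.00034). Summed over libraries, the ratio of CPM was 27.3 (exact 95% interval 13.1 to 68.5, counting error only). *Fads2*, a fatty acid desaturase, had 57.49, 39.5 and 56.29 TPM in ESCs and 321.93, 303.38 and 252.31 TPM in EpiLCs (2.46, adjusted p = 0.000132). *Fabp5*, which carries fatty acids to PPARδ, stood at 91.3 ± 12.3 and 232.3 ± 16.4 TPM (1.3001, adjusted p = 0.000294). *Hsd17b7*, an enzyme of steroid and cholesterol synthesis, stood at 13.3 ± 2.51 and 34.03 ± 5.51 TPM (1.3029, adjusted p = 0.00125).

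Known target genes of the receptors moved in both directions. Of 28 listed genes, which include the receptors *Esrra* and *Pgr*, 23 had enough counts, and 6 were higher (26.1%) and 9 lower (39.1%), against 22.6% and 22.8% of all genes tested, with a median log2 fold change of 0.025. *Abca1*, the cholesterol exporter induced by LXR, had 5.81, 6.13 and 10.86 TPM in ESCs and 0.51, 0.75 and 0.27 TPM in EpiLCs (-3.95, adjusted p = 0.000593). *Cpt1a*, the carrier of fatty acids into mitochondria and a PPAR target, had 19.73, 26.88 and 30.12 TPM in ESCs and 1.8, 2.56 and 1.7 TPM in EpiLCs (-3.71, adjusted p = 9.64e-05). *Sgk1*, a kinase induced by glucocorticoids, had 295.34, 347.26 and 274.97 TPM in ESCs and 93.89, 107.42 and 121.73 TPM in EpiLCs (-1.55, adjusted p = 0.000216). Other targets of the same receptors were higher, and were chosen after their values were seen. The LXR target *Abcg1*, a sterol transporter, had 3.71, 2.13 and 8.97 TPM in ESCs and 15.24, 13.44 and 12.07 TPM in EpiLCs (1.38, adjusted p = 0.048). *Srebf1*, a regulator of lipid synthesis and an LXR target, stood at 27.8 ± 1.97 and 41.4 ± 2.99 TPM (0.52, adjusted p = 0.00331). *Zbtb16*, a glucocorticoid target, stood at 0.307 ± 0.061 and 0.943 ± 0.13 TPM (1.54, adjusted p = 0.00386). Targets of LXR and of the glucocorticoid receptor were thus found in both directions. The activity of the receptors on these genes was not measured. Without EpiLC replicate 1 or 2, the number of target genes past the threshold was 9 in place of 15. Over all genes it also fell, to 2144 or 2333 higher and 2100 or 2411 lower, in place of 3267 and 3304.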

How the data were processed

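RNA-seq of 3 ESC and 3 EpiLC libraries (mRNA libraries, single reads of 76 nt) was analysed. The authors trimmed reads with cutadapt 1.16, aligned them with STAR 2.5.2a and quantified mm10 RefSeq genes with RSEM 1.3.0, using strand. They deposited expected counts, which are not normalized (4.27 to 4.65% per library not whole), and TPM, scaled by RSEM for length and library. Here expected counts were rounded, normalized by TMM and tested with edgeR 4.0.16 (R 4.3.3; quasi-likelihood, filterByExpr, 14468 of 24736 genes kept), with Benjamini-Hochberg adjustment over all genes tested and a threshold of 0.05. Groups came from the sample labels. Alternatives used DESeq2 1.42.0, limma 3.58.1 on log2(TPM + 1) and log2(TPM + 0.1), upper-quartile normalization, other filters, a replicate block and leaving out each library. The tests were tried on simulated data.

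The members, lists and tests were chosen with earlier results of these data known. All receptors past the threshold are named, and from each other list at most the 4 largest changes past a log2 fold change of 1, except that 1 such gene is not reported here. Named beyond this rule, for context or after values were seen, were *Nr1h3* and other receptors not past the threshold, *Arntl*, *Bmp15*, *Dio2* and *Ch25h*. The same holds for *Abcg1*, *Srebf1*, *Zbtb16*, *Fkbp4*, *Hsp90aa1*, the retinoid and naive core receptors, single marker genes, and the TGACG and length checks. Sequences and positions are from RefSeq (GRCm38.p6, the mm10 build). Protein sequences were not used here.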

Additional observations from a re-analysis of the deposited data

How the results depend on the processing

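Of the log2 fold changes of single receptors under all alternatives, 263 kept direction and side of the threshold, 16 no longer passed it, 8 newly passed it and 5 took the opposite sign. The opposite signs were those of *Nr3c2* (by limma 0.0052 with 1 added to the TPM and 0.0522 with 0.1 added, and from -0.3901 to 0.2542 leaving out 1 library, with 0.0448 without EpiLC replicate 1) and *Vdr* (from -0.6422 to 0.1423 leaving out 1 library, the latter without ESC replicate 2), neither past the threshold. Leaving out 1 library at a time gave 2 to 6 higher and 7 to 9 lower receptors, 6 to 14 coregulators, 1 to 6 chaperones of steroid receptors, 9 to 16 target genes and 4 to 8 clock genes past the threshold. Chaperones past it numbered 2 with upper-quartile normalization and 2 with limma on log2(TPM + 1), against 4. The log2 ratio of the summed receptor levels was 0.2167 from CPM, and from -0.1496 to 0.0305 leaving out 1 library, an alternative chosen after seeing the data. Over all genes, leaving out 1 library at a time gave 2144 to 3572 higher and 2100 to 3609 lower, against 3267 and 3304 with all libraries. The lowest numbers were those without EpiLC replicate 1, and the highest those without ESC replicate 2. A filter of 10 counts in every sample left 16 receptors to test. The replicates share only a number between groups: same-numbered libraries had deviations correlated across genes with r = 0.0038, 0.2127 and 0.1885, and 4 of 6 libraries correlated best with their own number. With the replicate block, 5 receptors were higher and 9 lower, *Nr2f2* being added (-1.7554, adjusted p = 0.05). Depth limits what can be said of receptors under 1 TPM, and 3 replicates limit small differences.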

Other observations

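The chaperones that hold steroid receptors ready for ligand were highly expressed in both cell types. Of 11 listed, 2 were higher and 2 lower in EpiLCs (18.2% each, against 22.6% and 22.8% of all genes tested), none by a log2 fold change above 1. The HSP90 cochaperone *Fkbp4* had the largest change, from 682.6 ± 67.4 TPM in ESCs to 962.2 ± 54.2 TPM in EpiLCs (0.44, adjusted p = 0.00782), and *Hsp90aa1* stood at 4806 ± 489.9 and 4039 ± 241.4 TPM (-0.30, adjusted p = 0.0338). *Fkbp4* and *Hsp90aa1* were chosen after their values were seen. The number of chaperones past the threshold was 1 without ESC replicate 1, EpiLC replicate 1 or EpiLC replicate 2, 2 without ESC replicate 3 and 6 without ESC replicate 2.

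ESC libraries also held transcripts of the primitive streak, the site of mesoderm formation. The 7 streak markers summed to 446.4, 180.8 and 138.4 TPM in ESC replicates 1, 2 and 3 and to 8.82, 8.85 and 49.36 TPM in EpiLC replicates 1, 2 and 3, and 6 of 7 were lower in EpiLCs, against 22.8% of all genes tested. Of these 6, *Evx1*, *Cdx1* and *Msgn1* passed the filter on low counts through their ESC libraries alone. The 6 neural markers summed to 59.5, 95.31 and 81.14 TPM in ESCs and 149.2, 133.4 and 131.2 TPM in EpiLCs. Of the 4 neural markers with enough counts, *Tubb3*, a neuronal tubulin, was the only 1 past the threshold (65.8 ± 16.4 and 121.4 ± 7.99 TPM, 0.83, adjusted p = 0.00977).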
